A study of Mus musculus with 2 samples.

Results

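The complement genes described here are C1qa, C1qb, C1qc, C2, C3, C4b, Cfb, Serping1 and C3ar1, which are 9 of the 32285 genes listed in single-cell libraries of mouse ovarian tumors. They were taken by gene symbol. The tumors came from KPCA cells, an engineered mouse line whose alterations include mutant Trp53 and overexpressed Ccne1 and Akt2, grafted intraperitoneally into C57Bl6J mice. Both groups share these alterations and the ablation of Fst, the follistatin gene. KPCA.FSTKO_hFSTL3 cells also carry an expression plasmid for human FSTL3, and KPCA.FSTKO cells do not. The KPCA.FSTKO_hFSTL3 line is a single stable clone picked for FSTL3 secretion, so plasmid and clone cannot be told apart. For each genotype, 4 omental tumors taken at day 10 were pooled into 1 library. The methods give females of 12 to 16 weeks for all mouse experiments.

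Complement is a set of secreted proteins that activate each other by cleavage, with receptors and inhibitors on cells and in fluid. The classical pathway starts when C1q, built from the products of C1qa, C1qb and C1qc, binds antibody or debris, and its partner proteases C1r and C1s then cleave C4 and C2. The alternative pathway uses factor B, the product of Cfb. Both pathways cleave C3, whose fragments coat targets and attract cells through receptors such as that of C3ar1. Serping1 encodes the C1 inhibitor, which blocks C1r and C1s. The liver makes most complement proteins of plasma, and macrophages, fibroblasts and epithelia make some of them in tissues.

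Levels are counts of unique molecular identifiers (UMIs, ideally 1 per captured transcript), summed over the cells of a class and given per 1000000 UMIs of that class (CPM). There was no replicate and no test. All intervals are at 95% and cover counting error only, by the exact Poisson method for levels, by Clopper-Pearson for shares and by the conditional binomial for ratios. The libraries held 168214773 and 80391504 UMIs in KPCA.FSTKO and KPCA.FSTKO_hFSTL3, in that order here and below, and 6777 of 7582 and 4041 of 4244 barcodes passed the filters. The cell numbers that the study states equal the deposited barcodes, before these filters. The libraries shared 12 barcodes. Pancreatic acinar genes exceeded 30 counts per 10000 UMIs in 1.43% and 87.1% of kept barcodes, and these were left out of every class. The median mitochondrial share was 3.54% and 10.7%. Fst still stood at 4.99 and 7.68 CPM in cancer cells, which does not check the ablation, since 3' counts need not cover the altered part.

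Cells were put into classes by summed marker genes, none of them a complement gene. The gate gave 845 and 136 macrophages, 299 and 41 stromal cells, 46 and 12 mesothelial cells and 3666 and 228 cancer cells. Median depths were 12969 and 19435, 16848 and 21843, 19972 and 28141, and 28032.5 and 42053 UMIs per cell. A gated class is a range of marker levels and not a type: in KPCA.FSTKO 26, 7, 1 and 112 cells of these classes lay within 25% above the limit, and 64, 61, 3 and 149 cells left out lay within 25% below it. In KPCA.FSTKO_hFSTL3 96, 113, 111 and 74 ungated barcodes lay just below the limits. The counts below the limits take in barcodes that another limit left out as well. In KPCA.FSTKO_hFSTL3 3519 of 3592 ungated barcodes were over the acinar limit, so these counts do not show how many the marker limit alone left out. The gate capped macrophage markers in the other classes and fibroblast markers in macrophages and cancer cells, which by itself lowers RNA of one class in another.

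The gate used most of these marker genes, so they describe the class names and are no separate check of them. All 12 macrophage markers had UMIs in macrophages and all 14 fibroblast markers in stromal cells of both libraries. Of 20 cancer markers 20 and 19 had UMIs in cancer cells, where Sox17 had none in KPCA.FSTKO_hFSTL3. All 12 macrophage and 14 fibroblast markers also had UMIs in KPCA.FSTKO cancer cells, so only levels separate the classes. Macrophage markers summed to 12959 and 15405 CPM in macrophages and at most 182 and 239 CPM in stromal, mesothelial and cancer cells. Fibroblast markers summed to 28608 and 27771 CPM in stromal cells and at most 829 and 355 CPM in macrophages and cancer cells. The mesothelial name is weaker. Of 13 mesothelial markers 13 and 12 had UMIs in these cells, with Muc16 missing in KPCA.FSTKO_hFSTL3. The median mesothelial cell held 104 and 118 counts per 10000 UMIs of summed fibroblast markers beside 2.84 and 3.27 of mesothelial markers. The typical cell of this class thus carried fibroblast markers beside at least 3 mesothelial ones, though the gate asked for no fibroblast marker. Marker number was counted at full depth and rises with depth. Of the stromal and mesothelial cells thinned to 10000 UMIs, 14 and 6 held 3 or more mesothelial markers. Summed mesothelial markers, which share Msln with the cancer markers, reached 1593 and 851 CPM in cancer cells, where Bnc1 had no UMI in either library. They reached 1116 and 1477 CPM in the mesothelial class and 551 and 599 CPM in stromal cells. In KPCA.FSTKO the mesothelial class was thus not highest for its own marker list. The median acinar level ran from 0.240 to 0.674 counts per 10000 UMIs in the KPCA.FSTKO classes and from 4.38 to 10.5 in the KPCA.FSTKO_hFSTL3 classes, and its part in the differences between the libraries was not tested.

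The complement genes fell into a macrophage group, a stromal and mesothelial group, and C4b, which lay in both. C1qa, C1qb, C1qc and C3ar1, 4 of 9 genes, were at least 2 times higher in macrophages than in any other of the 4 classes in each library, against 9.69% of 13835 genes in KPCA.FSTKO and 10.1% of 9768 genes in KPCA.FSTKO_hFSTL3 with at least 100 UMIs. C2, C3, Cfb and Serping1, another 4 of 9, were at least 2 times higher in stromal and mesothelial cells summed than in macrophages or cancer cells in each library, against 9.01% and 6.77% of genes. Stromal cells alone stood 2 times above every other class for 0 of 9 genes in both libraries (background 1.78% and 1.74%). Mesothelial cells alone did so for 0 of 9 genes in KPCA.FSTKO (background 1.55%) and for 1 of 9, C3, in KPCA.FSTKO_hFSTL3 (background 1.77%). No complement gene described here was highest in cancer cells.

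**Figure D1:**
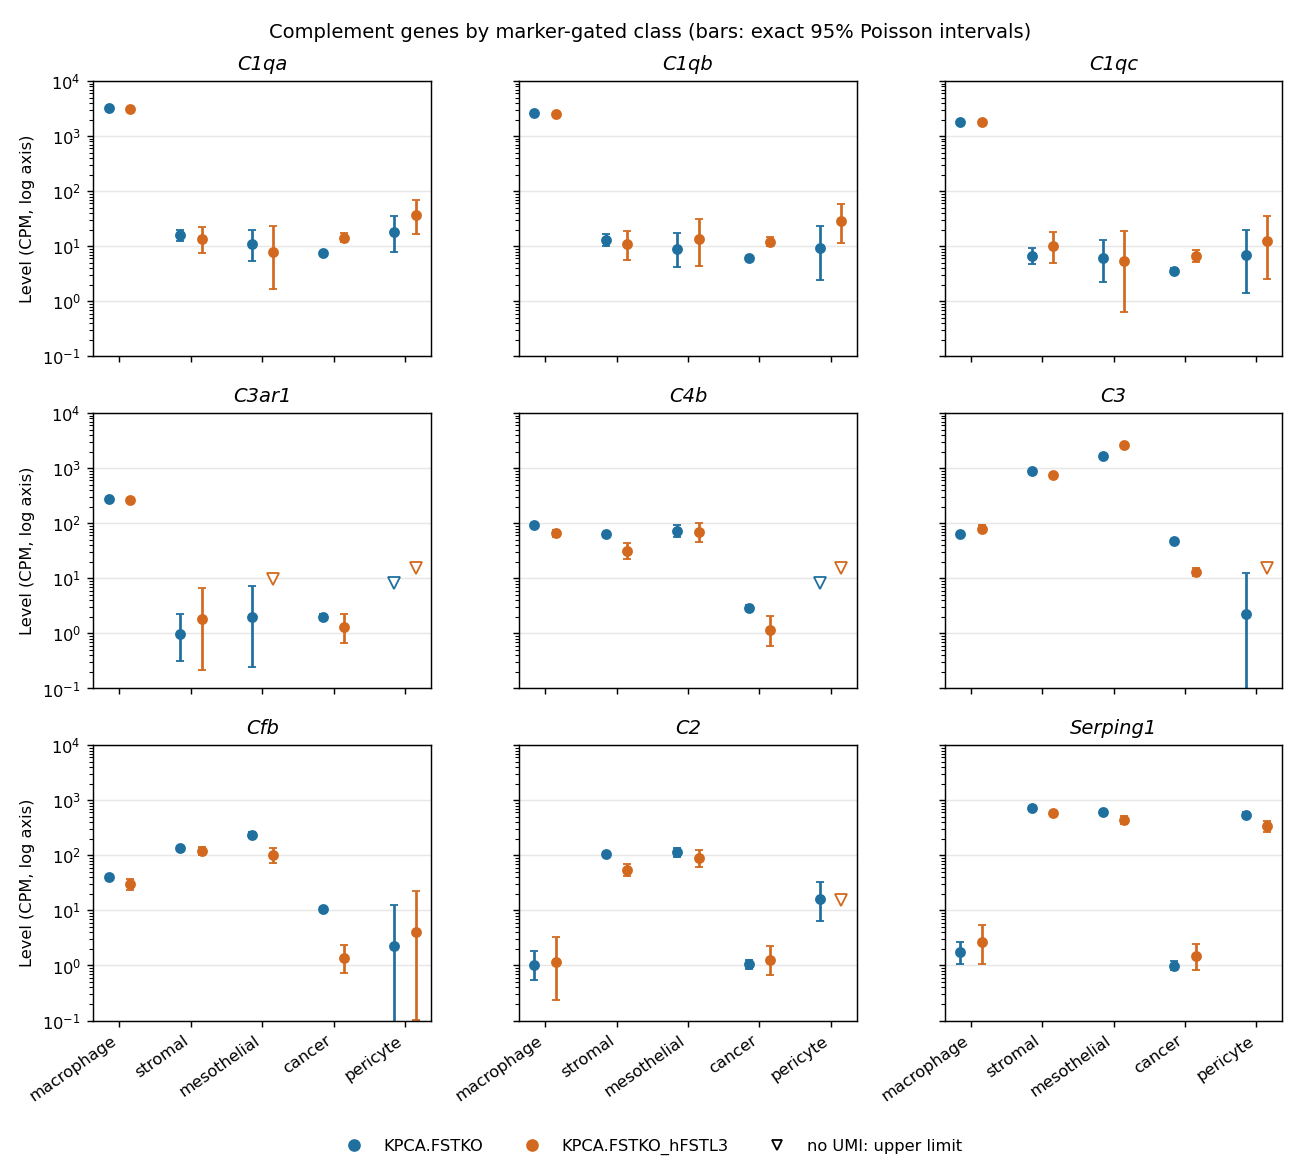
Level of each complement gene (CPM, log axis) in the macrophage, stromal, mesothelial, cancer and pericyte classes of KPCA.FSTKO and KPCA.FSTKO_hFSTL3. Points are summed UMIs with exact 95% Poisson intervals, and open triangles are upper limits where no UMI was counted. C1qa reached 3254 and 3066 CPM in macrophages and at most 37.1 CPM in the other classes drawn, while Serping1 reached 716 and 596 CPM in stromal cells and at most 2.66 CPM in macrophages and cancer cells.

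The C1q chains were the most abundant of these transcripts in macrophages. C1qa stood at 3254 CPM (3221 to 3287) and 3066 CPM (2999.7 to 3134). C1qb stood at 2627 CPM (2597 to 2657) and 2526 CPM (2466 to 2588), and C1qc at 1766 CPM (1742 to 1791) and 1788 CPM (1737 to 1839). The order C1qa, C1qb, C1qc was the same in both libraries, though 3' counts compare levels between genes only roughly. Over the next of the 4 classes, C1qa was 207 (167 to 260.2) and 213 (179.7 to 254) times higher in macrophages. C1qb was 198 (157 to 255) and 190.2 (81.5 to 586) times higher, and C1qc 263 (189 to 378) and 179 (99.9 to 359) times higher. Macrophages held 97.6% and 98.1% of the C1qa UMIs of the 4 classes.

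The C1q genes lie side by side on the minus strand of chromosome 4 of GRCm38 within 18675 bases, C1qb at 136880129 to 136886187, C1qc at 136889804 to 136893065 and C1qa at 136895917 to 136898803. RefSeq promoter sequence was at hand for 4 of the 9 genes, and only the bases before the gene start are given. Those of C1qb (chr4:136886201-136886450) and C1qc (chr4:136893066-136893164), minus strand, are shown since these neighbours share their class and vary together from cell to cell. Capitals mark AGGAAG or its reverse complement, core letters of sites for ETS factors, a family that includes PU.1 of myeloid cells.
C1qb: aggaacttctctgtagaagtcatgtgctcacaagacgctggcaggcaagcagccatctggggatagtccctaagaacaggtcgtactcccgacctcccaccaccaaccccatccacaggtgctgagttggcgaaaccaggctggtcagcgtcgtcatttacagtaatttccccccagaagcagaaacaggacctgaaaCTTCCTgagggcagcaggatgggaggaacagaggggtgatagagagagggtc
C1qc: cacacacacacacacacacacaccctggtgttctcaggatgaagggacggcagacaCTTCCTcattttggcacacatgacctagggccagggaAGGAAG
C1qb held 1 match in 250 bases and C1qc 2 in 99 bases. Of 32851 RefSeq promoters, 29.5% held these letters on either strand in the 250 bases before the start. A match of letters is a description and not a binding site.

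Within macrophages the C1q chains varied together from cell to cell. Of the 800 KPCA.FSTKO macrophages with a C1qa UMI, 99.2% also had C1qb and 97.9% had C1qc, against 37.8% and 22.2% of the 45 without C1qa. In KPCA.FSTKO_hFSTL3 the shares among 128 macrophages with C1qa were 99.2% and 97.7%. With every cell thinned to 5000 UMIs, Pearson's r of C1qa with C1qb was 0.84 and 0.87 over 789 and 133 cells, and with C1qc 0.81 and 0.88. The cells share a library, so r is a description. It was 0.65 and 0.56 with Apoe, which encodes a lipid carrier of macrophages, 0.38 and 0.36 with Mrc1, the mannose receptor, and 0.03 and -0.10 with C3.

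Single macrophages ranged widely in C1qa. The 10th percentile, median and 90th percentile were 397, 3042 and 6197 CPM in KPCA.FSTKO and 447, 2774 and 6069.6 CPM in KPCA.FSTKO_hFSTL3, so the libraries overlapped over most of their range. Macrophages were also split at the median of Arg1, the arginase gene of many tumor macrophages, after thinning to 5000 UMIs. C1qa was at 2858 CPM (2784 to 2934) above and 3638 CPM (3554 to 3722) at or under the median Arg1 in KPCA.FSTKO. In KPCA.FSTKO_hFSTL3 these levels were 2403 CPM (2239 to 2576) and 3684 CPM (3481 to 3895). C3 was lower on the same side, at 47.6 CPM (38.4 to 58.3) and 88.9 CPM (76.3 to 103) in KPCA.FSTKO, whereas C3ar1 was at 288 and 280.4 CPM, within counting error of each other. In KPCA.FSTKO_hFSTL3 C3 rested on 9 and 36 UMIs. Over the same thinned cells r of Arg1 was -0.09 and 0.03 with C1qa, and 0.0008 and 0.05 with C1qc. By r the relation of C1qa and C1qc to Arg1 was thus weak from cell to cell. The median split, in contrast, showed less C1qa above the median Arg1 in both libraries, beyond counting error.

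Outside macrophages C1q RNA stood at a low level. In KPCA.FSTKO cancer cells C1qa, C1qb and C1qc were at 0.230%, 0.236% and 0.203% of their macrophage levels, and the macrophage genes Lyz2, Arg1 and Apoe at 0.222%, 0.210% and 0.242%. Other genes abundant in macrophages differed, with Cd74 at 0.426% and Ctsb, a protease gene that many cells express, at 12.7%. In KPCA.FSTKO stromal cells C1qa was at 0.483%, below Apoe at 4.598% and Csf1r at 6.65%. In KPCA.FSTKO_hFSTL3 cancer cells the C1q chains were at 0.469%, 0.481% and 0.376%, with 0.344% for Lyz2, 0.228% for Arg1 and 0.595% for Apoe, so C1qa lay above Arg1 beyond counting error. Stromal cells of KPCA.FSTKO held 15.7 CPM (12.5 to 19.5) of C1qa, T and NK cells 21.3 CPM (10.2 to 39.2) and erythroid cells 54.0 CPM (31.5 to 86.4). In KPCA.FSTKO_hFSTL3 the stromal, mesothelial and cancer levels of C1qa ran from 7.97 to 14.4 CPM. Lymphoid and erythroid cells are not known to make C1q, and the KPCA.FSTKO stromal, mesothelial and cancer levels were not above theirs, so no expression is read from them. Where this RNA came from was not tested. With cells thinned to 1000 UMIs, a C1qa UMI was found in 80.9% and 80.9% of macrophages, in 1.55% and 0.877% of cancer cells and in 5.41% of KPCA.FSTKO erythroid cells (median depth 4171.5 UMIs), and as deposited in 94.7% and 94.1% of macrophages and 19.0% and 25.4% of cancer cells.

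The balance of the 3 chains differed in places from that of macrophages. C1qa, C1qb and C1qc made up 42.5%, 34.4% and 23.1% of 88224 C1q UMIs in KPCA.FSTKO macrophages, and 41.5%, 34.2% and 24.2% of 19428 in KPCA.FSTKO_hFSTL3. The C1qc share was 20.8% (19.0 to 22.7%) in KPCA.FSTKO cancer cells, slightly below that of macrophages. In the 3519 acinar-rich barcodes of KPCA.FSTKO_hFSTL3 it was 17.6% (17.4 to 17.9%) of 67235 C1q UMIs, against 24.2% (23.6 to 24.8%) in the macrophages of that library. These barcodes thus differ from the macrophages in the balance of the chains.

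C3ar1, the receptor for the C3a fragment, was the fourth gene of the macrophage group. It stood at 274 CPM (265 to 284) and 265 CPM (245 to 285) in macrophages and at 2.01 CPM or less in stromal, mesothelial and cancer cells of both libraries. After thinning to 1000 UMIs it was found in 25.8% and 23.5% of macrophages, and as deposited in 84.6% and 89.0%. In KPCA.FSTKO neutrophils 4 UMIs gave 16.0 CPM (4.37 to 41.1). Its r with C1qa was 0.14 and 0.25, below those among the C1q chains, and fewer UMIs also limit r. C3ar1 lies on chromosome 6 (122847138 to 122856161, minus strand).

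C3, the component that both pathways cleave, was by summed counts the most abundant of these transcripts in stromal and mesothelial cells. In stromal cells it reached 896 CPM (871 to 923) and 739 CPM (689 to 792). In mesothelial cells it reached 1661 CPM (1582 to 1743) and 2592 CPM (2432 to 2760.2). The mesothelial level was 1.85 (1.75 to 1.96) and 3.51 (3.19 to 3.85) times the stromal one. In KPCA.FSTKO_hFSTL3, 1 of 12 mesothelial barcodes held 455 of 976 C3 UMIs, where the next held 112. Without the top barcode of each library the mesothelial levels were 1599 CPM (1520.2 to 1681) and 1489 CPM (1364 to 1622), and the stromal levels 868 CPM (843 to 893) and 628 CPM (582 to 677). The top mesothelial barcode of KPCA.FSTKO_hFSTL3 had 26505 UMIs in all and 7 mesothelial markers. C3 had a UMI in 89.0% and 90.2% of stromal cells as deposited, and in 46.5% and 43.9% after thinning to 1000 UMIs, against 1.33% of KPCA.FSTKO endothelial cells (median depth 6513 UMIs). The median stromal cell held 608 and 402 CPM of C3 against 593 and 579.5 CPM of Serping1. In KPCA.FSTKO_hFSTL3 the median stromal cell thus held less C3 than Serping1. The median mesothelial cell held 1502 and 1481 CPM of C3 against 552 and 454 CPM of Serping1.

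Per UMI, macrophages and cancer cells held less C3. Macrophages were at 63.6 CPM (59.1 to 68.4) and 79.8 CPM (69.3 to 91.3), and cancer cells at 47.9 CPM (46.6 to 49.2) and 13.01 CPM (10.8 to 15.5). Neutrophils of KPCA.FSTKO held 173 CPM (125 to 232) on 43 UMIs, and none were gated in KPCA.FSTKO_hFSTL3. By share of UMIs the picture differs, since KPCA.FSTKO cancer cells are many. They held 42.6% (41.7 to 43.4%) of the C3 UMIs of the 4 classes, stromal cells 38.0%, mesothelial cells 13.5% and macrophages 5.97%. In KPCA.FSTKO_hFSTL3 these shares were 5.75%, 38.4%, 46.0% and 9.90%. Such shares move with how many cells of each class were captured and gated.

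The start of C3 (chromosome 17, gene 57203970 to 57228136, minus strand) is set beside that of C3ar1, to show the genes of a ligand precursor and its receptor that lay in different classes. The bases are chr17:57228137-57228386 and chr6:122856162-122856407. Capitals mark TTGCNNAA in C3, letters like those bound by C/EBP factors, and the reverse complement of GGNNNTTCC in C3ar1, letters like those bound by NF-kappaB.
C3: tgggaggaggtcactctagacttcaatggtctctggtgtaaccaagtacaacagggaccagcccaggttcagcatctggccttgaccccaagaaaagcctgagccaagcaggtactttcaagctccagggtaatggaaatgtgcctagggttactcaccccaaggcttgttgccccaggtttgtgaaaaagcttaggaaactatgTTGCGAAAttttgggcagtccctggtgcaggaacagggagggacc
C3ar1: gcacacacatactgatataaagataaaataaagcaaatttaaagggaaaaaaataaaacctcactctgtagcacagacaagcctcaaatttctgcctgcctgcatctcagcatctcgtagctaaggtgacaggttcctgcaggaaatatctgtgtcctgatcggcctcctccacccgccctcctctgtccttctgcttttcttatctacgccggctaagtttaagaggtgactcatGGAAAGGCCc
On either strand in the 250 bases before the start, TTGCNNAA was held by 9.56% and GGNNNTTCC by 15.7% of all promoters. TTCNNNGAA, letters like those bound by STAT factors, was in 7.02% of promoters and in none of the 4 printed here.

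Cfb, the protease precursor of the alternative pathway, was found in the same classes as C3 at a lower level. In stromal cells it stood at 133 CPM (123 to 143) and 121 CPM (101 to 143). Mesothelial cells held 235 CPM (206 to 267) and 101 CPM (71.4 to 139). Macrophages held 39.9 and 29.6 CPM, and cancer cells 10.7 and 1.39 CPM. Of the 266 KPCA.FSTKO stromal cells with C3, 65.0% also had Cfb, against 6.06% of the 33 without. After thinning to 3000 UMIs these shares were 30.7% and 19.3%, a smaller gap than at full depth. Over stromal and mesothelial cells thinned to 10000 UMIs, r of C3 with Cfb was 0.46 and 0.28 (261 and 48 cells).

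C2, the protease of the classical pathway that C1s cleaves, was highest in stromal and mesothelial cells. In every other gated class it was at 4.53 CPM or less, except in KPCA.FSTKO pericytes, where 7 UMIs gave 15.9 CPM (6.41 to 32.8). Stromal cells held 107 CPM (98.3 to 116) and 54.5 CPM (41.6 to 70.1), and mesothelial cells 114 CPM (94.3 to 137) and 90.3 CPM (62.5 to 126). In KPCA.FSTKO the mesothelial and stromal levels did not differ beyond counting error, with a ratio of 1.07 (0.866 to 1.31). Macrophages and cancer cells were between 1.04 and 1.28 CPM in both libraries. Cfb (34856374 to 34862518) and C2 (34862604 to 34898265) are neighbours on the minus strand of chromosome 17 with 85 bases between them, yet macrophages held Cfb at a level where C2 was near 0. Another annotated gene, Gm20547, overlaps both on the same strand and is not among the counted features.

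Serping1, the C1 inhibitor, was a gene of stromal cells of every kind gated here. Stromal cells held 716 CPM (693 to 739) and 596 CPM (551 to 643), mesothelial cells 613 CPM (565 to 664) and 441 CPM (376 to 513), and pericytes 551 CPM (484 to 625) and 338 CPM (269 to 419). In pericytes C3 had 1 and 0 UMIs. Stromal and mesothelial cells together were 404 (261 to 661) and 209 (101 to 522) times above macrophages, the higher of the other classes. Endothelial cells held 9.95 CPM (4.29 to 19.6) and 40.8 CPM (18.7 to 77.4), the latter on 9 UMIs. Serping1 lies on chromosome 2 (84765387 to 84775444, minus strand).

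C4b, the C4 gene that C1s acts on, was found on both sides. In KPCA.FSTKO it stood at 94.3 CPM (88.8 to 100.1) in macrophages, 73.2 CPM (57.4 to 92.1) in mesothelial cells and 62.9 CPM (56.3 to 70.1) in stromal cells. In KPCA.FSTKO_hFSTL3 the levels were 66.1 CPM (56.6 to 76.7), 69.1 CPM (45.1 to 101) and 31.8 CPM (22.1 to 44.2), and the mesothelial and macrophage levels did not differ beyond counting error, with a ratio of 1.04 (0.664 to 1.58). Macrophages held 60.3% and 70.7% of the C4b UMIs of the 4 classes. The gene was uneven among macrophages, as the 43 KPCA.FSTKO barcodes with most C4b held 41.4% of its UMIs. C4b (chromosome 17, 34728380 to 34743882, minus strand) has a near copy, C4a, and 38.1% of 50-base windows in the last 500 bases of C4b recur there. Reads in such windows cannot be assigned, so the C4b level is uncertain. C4a itself was at 2.66 CPM or less in the 4 classes.

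**Figure D2:**
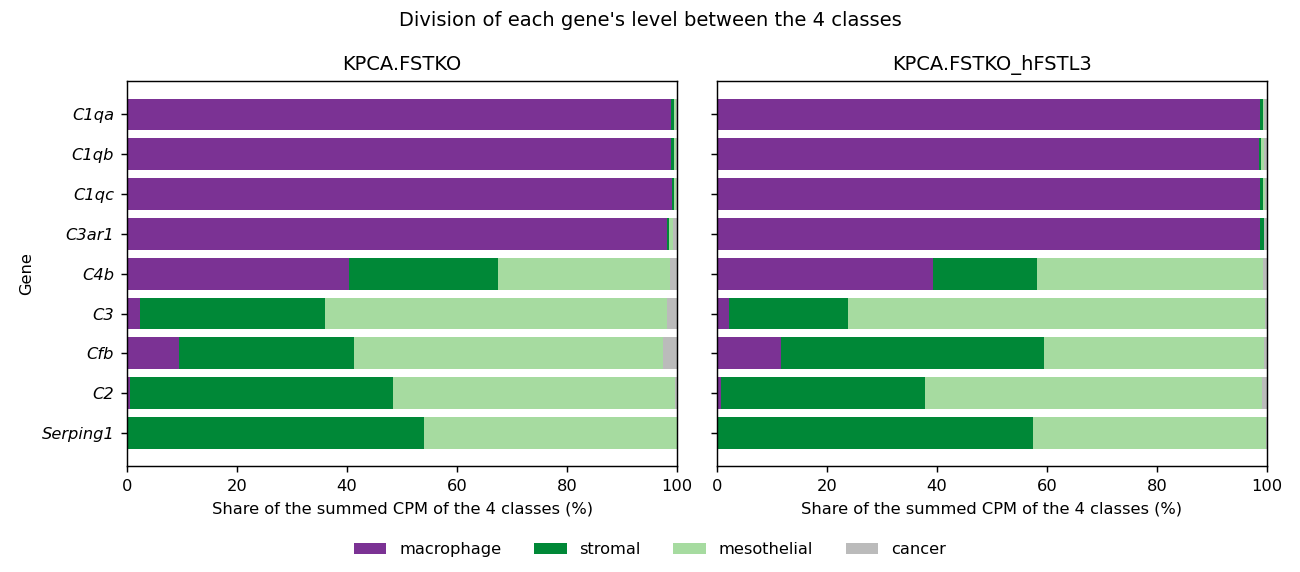
Share (%) of the summed CPM of the macrophage, stromal, mesothelial and cancer classes that lay in each class, for each complement gene and library, so that every class counts equally whatever its number of cells. Macrophages hold at least 98.2% for the C1q chains and C3ar1, 40.4% and 39.3% for C4b, 9.53% and 11.7% for Cfb and at most 2.38% for C3, C2 and Serping1.

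Within stromal and mesothelial cells C3 was highest in cells with 3 or more mesothelial markers and lowest in those with none. Cells were thinned to 10000 UMIs and grouped by how many mesothelial markers had a UMI. In KPCA.FSTKO C3 stood at 832 CPM with none (161 cells), 1385 CPM with 1 (59 cells), 1285 CPM with 2 (27 cells) and 3093 CPM with 3 or more (14 cells). In KPCA.FSTKO_hFSTL3 it stood at 484 (25 cells), 2040 (10 cells), 1043 (7 cells) and 4650 CPM (6 cells). Small groups rest on few barcodes: without its top barcode the last group was at 2623 and 2040 CPM, and the group with 1 marker in KPCA.FSTKO_hFSTL3 at 1056 CPM. Serping1 ran from 652 to 793 CPM over the KPCA.FSTKO groups without an order, and Col1a1, a collagen chain, was lower in each next group, from 6862 to 3286 CPM.

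C3 was lower where contractile genes were high. Cells with fewer than 10 contractile-marker counts per 10000 UMIs held 1339.7 CPM of C3 in KPCA.FSTKO and 2490 CPM in KPCA.FSTKO_hFSTL3, against 807 and 639 CPM in the rest. Without the top barcode of each group, the KPCA.FSTKO_hFSTL3 values were 1689 and 511 CPM. Over these cells r of C3 was 0.48 and 0.61 with Dcn (decorin), 0.42 and 0.62 with the acute-phase gene Saa3, and -0.23 and -0.58 with Tagln, a smooth-muscle gene.

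**Figure D3:**
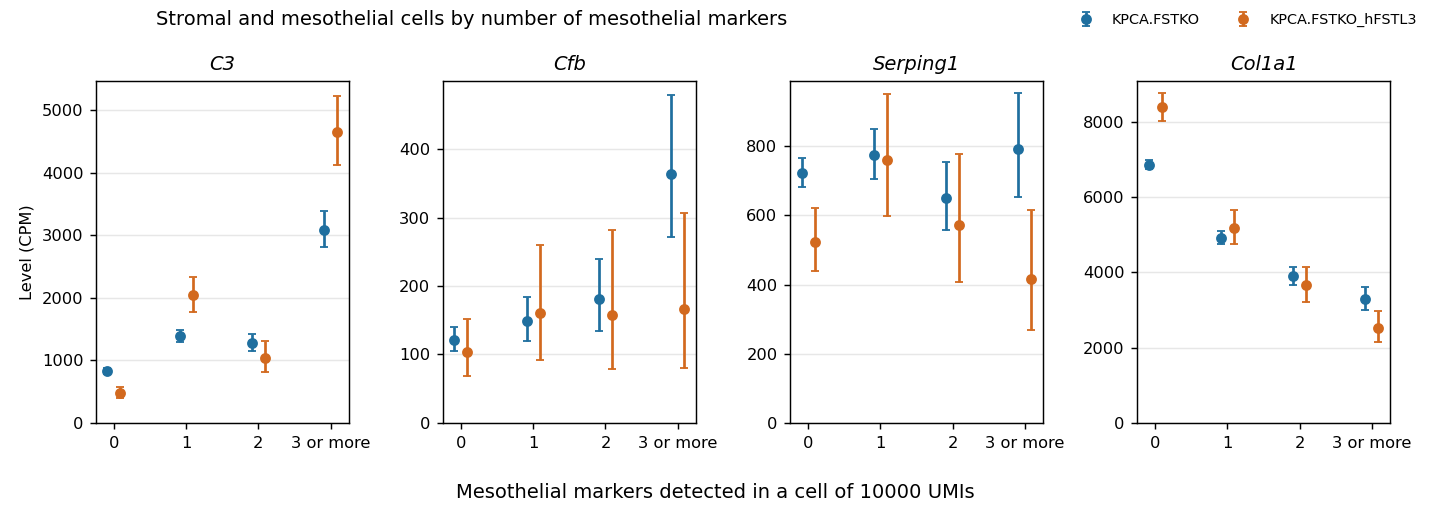
Level (CPM) of C3, Cfb, Serping1 and Col1a1 in stromal and mesothelial cells thinned to 10000 UMIs, grouped by how many mesothelial markers had a UMI, in each library with exact 95% Poisson intervals. C3 runs from 832 to 3093 CPM in KPCA.FSTKO and from 484 to 4650 CPM in KPCA.FSTKO_hFSTL3, where the last group holds 6 cells.

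The libraries were then compared within each class, as the log2 ratio of the CPM in KPCA.FSTKO_hFSTL3 over that in KPCA.FSTKO. In macrophages the C1q chains and C3ar1 were close, at -0.09 for C1qa, -0.06 for C1qb, 0.02 for C1qc and -0.05 for C3ar1. C4b was at -0.51 (-0.75 to -0.28) and Cfb at -0.43 (-0.79 to -0.08). C3 was at 0.33 (0.10 to 0.55), but without the top barcode of each library its levels were 62.2 CPM (57.8 to 67.0) and 64.1 CPM (54.8 to 74.6). Of 7 genes with at least 100 UMIs, 0 were 2 times higher and 0 were 2 times lower, against 1.71% of 8767 genes higher and 1.51% lower. The median log2 ratio over those genes was 0.10, and over the members -0.06. TMM scaling, which leaves out genes of extreme ratio when it sets the totals, moved every log2 ratio by -0.14 in macrophages, -0.08 in stromal, -0.12 in mesothelial and -0.09 in cancer cells.

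In stromal cells C2 and C4b came nearest to a 2-fold difference, at -0.97 (-1.38 to -0.59) and -0.99 (-1.53 to -0.48). C3, Cfb and Serping1 were at -0.28, -0.14 and -0.27. Of 5 genes, 0 were higher and 0 lower by 2 times, against 1.67% of 7177 genes higher and 2.8% lower. In mesothelial cells 1 of 4 genes, Cfb, was lower by the rule at -1.22 (-1.75 to -0.72), against 3.77% of 2306 genes lower, and 0 were higher, against 1.78%. With a looser gate of 1 marker fewer, the Cfb value was -0.81. C3 was at 0.64 (0.53 to 0.76) there, but at 0.06 without the top 5% of barcodes of each library.

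The largest differences of complement genes between the libraries were in cancer cells. C3 went from 47.9 to 13.01 CPM on 5233 and 122 UMIs, a log2 ratio of -1.88 (-2.15 to -1.62), and was 3.68 times lower (3.07 to 4.44) in KPCA.FSTKO_hFSTL3. Cfb was 7.73 times lower (4.50 to 14.6) on 1171 and 13 UMIs, and C4b 2.46 times lower (1.35 to 4.97) on 315 and 11 UMIs. These 3 of 9 genes were lower by the rule, against 7.1% of 12983 genes, and 0 were higher, against 3.19%. C1qa, C1qb and C1qc were at 0.94, 0.97 and 0.90.

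These differences depend on the gate. The plan had kept acinar-rich barcodes, and leaving them out was decided after marker levels were seen. With these barcodes kept, the log2 ratios in cancer cells were -0.83 for C3, -1.86 for Cfb and -0.06 for C4b, so that of the 3 genes Cfb alone stayed past 2 times. With a mean over cells of per-cell CPM, C4b turned to 0.25.

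Thinned shares of cells showed where C3 in cancer cells stood against background. At 1000 UMIs per cell, C3 was found in 5.07% (4.39 to 5.83%) of KPCA.FSTKO cancer cells and in 0.439% (0.0111 to 2.42%) of KPCA.FSTKO_hFSTL3 cancer cells, and as deposited in 36.9% and 23.2%. T and NK cells of KPCA.FSTKO, which should hold little C3, had it in 2.60% (0.316 to 9.07%) after thinning (median depth 4545 UMIs), and a level of 21.3 CPM (10.2 to 39.2). The KPCA.FSTKO cancer level lay above that interval, though the thinned shares overlapped. The KPCA.FSTKO pericytes, endothelial and erythroid cells held 1, 3 and 2 C3 UMIs, or 2.28, 3.73 and 6.35 CPM. In KPCA.FSTKO_hFSTL3 T and NK cells held 2 C3 UMIs and pericytes, endothelial and erythroid cells 0, too few to set a background for the cancer cells of that library. As a share of the stromal level, cancer C3 was 5.34% and 1.76%, where Serping1 was 0.139% and 0.251%, Col1a1 0.389% and 0.577%, and Dcn 0.759% and 0.215%. Cancer C3 thus stood higher against its stromal level than Serping1 did in both libraries. Col1a1 and Dcn are fibroblast markers of the gate, which required them in stromal cells and capped them in cancer cells. Their low shares therefore set no background for C3. The other members C2, C4b and Cfb were at 0.991%, 4.58% and 8.04% in KPCA.FSTKO and 2.35%, 3.69% and 1.15% in KPCA.FSTKO_hFSTL3. In KPCA.FSTKO_hFSTL3 C3 was thus below C2 and C4b, which rested on 12 and 11 cancer UMIs. Against its higher mesothelial level, the share of C3 would be smaller.

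**Figure D4:**
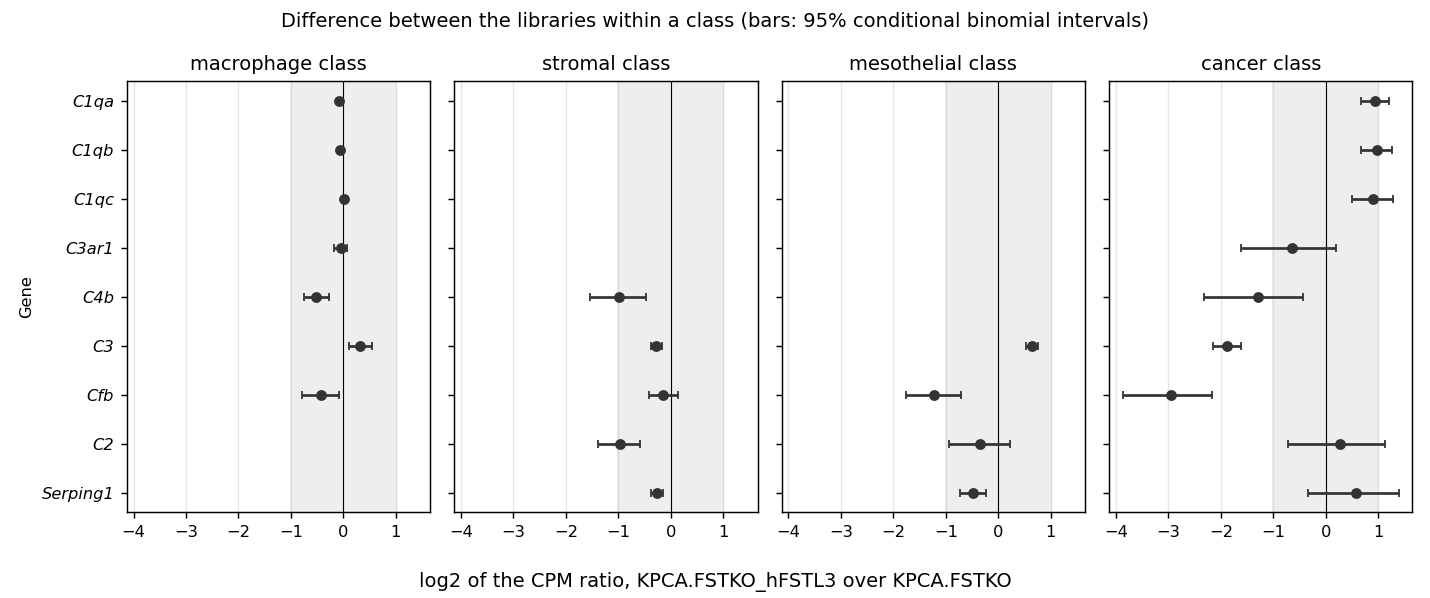
log2 of the CPM ratio of KPCA.FSTKO_hFSTL3 over KPCA.FSTKO for complement genes with at least 100 UMIs over both libraries, in each class, with 95% conditional binomial intervals. The grey band holds ratios of less than 2 times in either direction. C3, Cfb and C4b in cancer cells (-1.88, -2.95 and -1.30) and Cfb in mesothelial cells (-1.22) lie below the band, and no gene lies above it.

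C3 of KPCA.FSTKO cancer cells was concentrated in part of them. The 184 barcodes with most C3, 5% of the class, held 47.5% of its UMIs. By cluster, made without the complement genes, C3 ran from 12.6 CPM (8.20 to 18.4) in cluster 13 to 82.6 CPM (79.8 to 85.5) in cluster 1, which held 1264 cells. Cluster 1 also held 265 CPM of Lbp and 276 CPM of Cp, which encode the acute-phase proteins LPS-binding protein and ceruloplasmin. Lbp is a marker of the cancer gate. Cluster 9, with 297 CPM of the proliferation gene Mki67, held 23.5 CPM (21.3 to 25.8) of C3. Over cancer cells thinned to 10000 UMIs, r of C3 in KPCA.FSTKO was 0.39 with Cp, 0.38 with Lbp and 0.27 with Cfb.

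C3 was also lower in KPCA.FSTKO_hFSTL3 within each of the 3 clusters that held at least 20 cancer cells of both libraries. It was 12.4 CPM (8.88 to 16.8) in cluster 1 of KPCA.FSTKO_hFSTL3 on 70 cells. In cluster 2 it was 22.1 CPM (16.4 to 29.2) on 37 cells, against 35.2 CPM (33.03 to 37.6) in KPCA.FSTKO. In cluster 9 it was 4.67 CPM (1.88 to 9.62) on 29 cells. In each of these clusters the intervals of the libraries did not overlap.

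**Figure D5:**
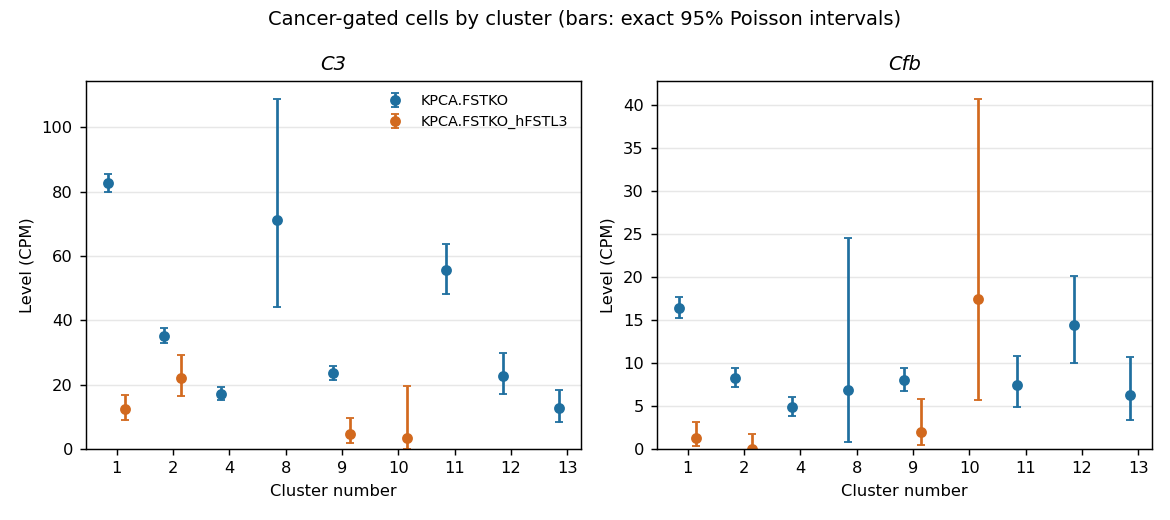
Level (CPM) of C3 and Cfb in cancer cells of each cluster with at least 20 such cells, in KPCA.FSTKO and KPCA.FSTKO_hFSTL3, with exact 95% Poisson intervals. C3 is highest in cluster 1 of KPCA.FSTKO at 82.6 CPM, and lower in KPCA.FSTKO_hFSTL3 in clusters 1, 2 and 9, at 12.4, 22.1 and 4.67 CPM.

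Lists of acute-phase and interferon-response genes were set beside C3 and Cfb. In cancer cells 3 of 6 acute-phase genes with enough UMIs were lower in KPCA.FSTKO_hFSTL3 and 0 higher, against 7.1% and 3.19% of all genes. Lbp went from 169 to 11.3 CPM, Lcn2, which encodes an iron-binding lipocalin, from 16.6 to 1.17 CPM, and Cp from 167 to 82.2 CPM. Lbp is also a marker of the cancer gate, so its level in cancer cells is not independent of the gate. Of 8 interferon genes 4 were lower (Ifit1, Ifit3, Psmb8 and Tap1) and 0 higher, with Psmb8, a proteasome subunit, at 63.0 and 11.6 CPM and the factor Irf1 at 45.6 and 43.2 CPM. In stromal cells 3 of 8 acute-phase genes were lower, Lcn2, Lbp and Hp, and Isg15 was the 1 of 7 interferon genes that was higher, against 2.8% lower and 1.67% higher over all genes. In macrophages Saa3, Lcn2 and Lbp were lower, 3 of 8, and 0 of 6 interferon genes, against 1.51% of all genes. In mesothelial cells 1 of 6 acute-phase genes, Cebpd, was lower, and 0 of 2 interferon genes, against 3.77% of all genes. Of a list of 4 abundant macrophage genes, 1, Lyz2, was higher in cancer cells, against 3.19% of all genes. In mesothelial cells 1 of 3 with enough UMIs was higher, against 1.78% of all genes. This was Cd74, which has a role in antigen presentation.

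A list of 50 other complement genes gave the rest of the system. In KPCA.FSTKO 22 of them had at least 100 UMIs in the 4 classes and 6 had none. Of those 22, 9 were at least 2 times higher in macrophages than in the other 2 compartments, 5 in stromal and mesothelial cells together and 0 in cancer cells, against 10.7%, 9.01% and 13.2% of all genes. In KPCA.FSTKO_hFSTL3 these were 6, 4 and 0 of 15, against 11.6%, 6.77% and 10.2%.

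The protease genes C1s1 and C1ra, whose products work with C1q, were highest in stromal and mesothelial cells, though macrophages also held C1ra. C1s1, the protease that cleaves C4 and C2, was at 240.4 and 194 CPM in stromal cells, 306 and 369 CPM in mesothelial cells and 1.30 and 1.14 CPM in macrophages. C1ra was at 91.9 and 70.8 CPM in stromal cells and 23.0 and 16.7 CPM in macrophages. Colec12, a scavenger receptor of the collectin family, was at 512 and 521 CPM in stromal cells. Clu, an inhibitor of the terminal pathway, was highest in mesothelial cells at 1476 and 1094 CPM, 3.64 (3.40 to 3.89) and 2.68 (2.34 to 3.07) times the stromal level. Cancer cells held it at 336 and 197 CPM, with 90.7% and 67.8% of its UMIs in the 4 classes. Stromal and mesothelial cells together were 1.72 and 2.97 times above cancer cells, so Clu passed the 2-fold rule in KPCA.FSTKO_hFSTL3 only. Cd55, an inhibitor on cell membranes, was at 37.1 CPM in KPCA.FSTKO mesothelial cells, 2.76 (1.80 to 4.17) times the stromal level.

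The macrophage genes of the list were regulators, lectins and receptors. Cfp (properdin, which stabilizes the alternative pathway) was at 227 and 303 CPM in macrophages, and the ficolin Fcna at 102 and 99.9 CPM. The integrin chains of complement receptors Itgam and Itgb2 were at 817 and 727 and at 316 and 279.6 CPM. A further integrin chain, Itgax, was at 20.1 and 31.9 CPM. The C5a receptor C5ar1 was at 183 and 181 CPM, and higher in KPCA.FSTKO neutrophils at 1472 CPM, and C5ar2 was at 11.01 and 10.6 CPM in macrophages. Vsig4, a receptor for C3b, was at 26.8 and 9.50 CPM and with Clu one of the 2 of 16 listed genes lower in KPCA.FSTKO_hFSTL3 macrophages, against 1.51% of all genes. In stromal and mesothelial cells 0 of 9 and 0 of 7 were lower, against 2.8% and 3.77%, and 0 higher. Cd93 was at 213 CPM in KPCA.FSTKO macrophages but at 1145 CPM in endothelial cells.

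In cancer cells the listed genes C1ra, C1s1 and Hc were lower in KPCA.FSTKO_hFSTL3 by the rule. Cd59a, an inhibitor of the terminal complex, was higher there, at 4.62 and 12.05 CPM. Components of the terminal complex were near absent. C6, C7, C8a, C8b, C8g and C9 were at 2.66 CPM or less in the 4 classes of both libraries, and Hc, the mouse C5 gene, at 2.88 CPM or less. Cfd, the protease that cleaves factor B, had 0 UMIs in these classes. A limit of 3 counts, which a count of 0 allows, is 0.260 CPM in KPCA.FSTKO macrophages.

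Genes with the most similar pattern over classes were sought among 15205 genes across 12 points, the gated classes of both libraries with at least 30 cells. For C1qa they were C1qb, Cybb, Lyz2, Arg1 and C1qc, with r from 0.98 to 0.995. For Serping1 they were Mfap2, Snhg18, C1s1, Ndn and Clip3, with r from 0.97 to 0.98. For C3 they were Gabrb1, Dmkn, Slpi, Irf7 and Ephb2, with r from 0.897 to 0.905. The points share libraries and depth.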

How the data were processed

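The study made 10x Genomics 3' single-cell libraries and ran Cell Ranger (3.1.0 in the methods and the submitters' processing notes, 7.2.0 in the matrix header) on the mm10 reference. The authors deposited raw UMI counts per gene and barcode, not normalized and before the filters of the methods. Here barcodes with a mitochondrial share under 20% and more than 200 and fewer than 8000 genes were kept. Cells with at least 1000 UMIs were gated by summed marker genes and by limits on the markers of other classes and on acinar genes. The members, lists and gate were chosen with earlier results of these data known, and the gate's limits after marker levels were seen, never complement genes. The plan had kept acinar-rich barcodes, which were left out once their number was seen, and both choices are reported. Doublets were not removed, since no source names such a step, and Scrublet scores (scanpy 1.11.5) served for an alternative. Clusters came from Seurat 5.3.0 in R 4.3.3 (2000 variable genes without complement genes, 10 principal components, resolution 0.8).

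Counts were summed per class and library. Intervals used scipy 1.17.1, and TMM used edgeR 4.0.16 for scaling only. A gene was called by size alone, with at least 100 UMIs and a CPM ratio of at least 2. Code was tested on simulated data. The genes named are the 9 members, listed complement genes at least 2 times higher in 1 of the 4 classes, and the 5 genes most like C1qa, C3 and Serping1. C1ra, C1s1, Colec12, Cd59a, Cfd and the terminal components fall outside that rule and were chosen with their values known, as were the acute-phase, interferon and marker genes given by name. Some items are not reported here. Promoter sequences are from RefSeq on GRCm38, and positions from GENCODE on the same build.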

Additional observations from a re-analysis of the deposited data

Results flagged for a closer look

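C3 had opposite signs between the libraries in different classes. On the log2 scale, KPCA.FSTKO_hFSTL3 against KPCA.FSTKO was at 0.33 in macrophages and 0.64 in mesothelial cells, and -1.88 in cancer cells. The difference between classes was not tested, and without the top C3 barcode of each library the levels were 62.2 CPM (57.8 to 67.0) and 64.1 CPM (54.8 to 74.6) in macrophages, and 1599 CPM (1520.2 to 1681) and 1489 CPM (1364 to 1622) in mesothelial cells.

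Most complement UMIs of KPCA.FSTKO_hFSTL3 lay in acinar-rich barcodes, which no comparison uses. These held 77.7% of the C1qa UMIs of kept barcodes, 78.5% of C1qb, 70.6% of C1qc, 73.7% of C2, 76.8% of C3, 82.0% of C4b, 77.6% of Cfb, 75.3% of Serping1 and 65.1% of C3ar1. Levels summed over them were 543 CPM for C1qa, 145 CPM for C3 and 58.7 CPM for Serping1. Whether single barcodes held both macrophage and stromal members was not tested.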

How the results depend on the processing

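No paired analysis was possible because each genotype had 1 library and the labels give no replicate numbers. In KPCA.FSTKO macrophages were highest for 5 of 9 genes and stromal or mesothelial cells for 4 of 9 under all 10 alternatives run for that count, and in KPCA.FSTKO_hFSTL3 both counts were between 4 and 5. Classes taken from clusters gave no mesothelial class. In cancer cells the log2 ratio of C3 was -1.40 without a barcode filter, -2.29 as a mean of per-cell CPM and -0.83 without the acinar limit. That of Cfb was -2.15 and -1.86 under the last 2 of these, and that of C4b turned to 0.25 as a mean of per-cell CPM. The plan had no acinar limit, which was added to the gate after marker levels were seen. The cause of these moves was not tested. The numbers of all genes called moved with the call rule by construction. With a minimum of 20 UMIs, 469 were higher and 640 lower in macrophages, 434 and 787 in stromal and 976 and 1798 in cancer cells. With a ratio of 1.5 these were 698 and 374, 513 and 584, and 1404 and 1822, against 150 and 132 in macrophages, 120 higher in stromal cells, and 414 and 922 in cancer cells by the rule used. A mean of per-cell CPM gave 202 higher in stromal cells. Over 103 results and 704 alternative values, 556 stayed within counting error or 1.5 times of a count, 147 moved further and 1, C4b in cancer cells, turned the sign of a value past 2 times. Counting smaller values too, the sign turned in 32 of 534 alternative log2 values, over 19 of 53 log2 results, among them C3 between the libraries in macrophages and in stromal cells. The 12 mesothelial cells and 228 cancer cells of KPCA.FSTKO_hFSTL3 limit every value drawn from them.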
